A study of Homo sapiens with 28 samples.

Results

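The 4 libraries described here compare neural progenitors without SOX1 with neural progenitors that have it, on day 4 of differentiation under the culture label CT1.0. They are 4 of the 28 libraries of a series on what SOX1 does in early neural differentiation of H9, an established human embryonic stem cell line. The KO group holds 2 libraries of genotype SOX1-/-, numbered 26 and 48 and read here as KO lines 26 and 48. The WT group holds 2 wild-type libraries, numbered 1 and 2. All 4 came from H9-derived cells labelled as neural progenitors, and RNA was extracted with TRIzol and selected for poly(A). The labels name no growth protocol, do not spell out CT and give its number no unit. They also do not say whether a KO line is 1 clone, which bases of SOX1 were deleted, or how the lines were selected. Other groups used for comparison are KO and WT under CT0.4 and under IWP2 on day 4, and KO and WT under CT1.0 on day 8, with 2 libraries each. The compound IWP2 is known to block the secretion of WNT proteins. The genes described are the 19794 of 58219 in the table that had at least 1 TPM in at least 2 of the 4 libraries. TPM is an abundance measure corrected for transcript length, so levels can be compared between genes.

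SOX1 encodes a DNA-binding protein of the SOX B subfamily and marks the neural plate early. Along the neural tube, OTX2 marks forebrain and midbrain, GBX2 and the HOX genes mark hindbrain, and the border between them, the isthmus, is a source of WNT1 and FGF8 and carries EN1, PAX2 and PAX5. WNT signalling and retinoic acid shift neural progenitors towards posterior positions, and each switches on genes of its own feedback, such as SP5 and AXIN2 for WNT and CYP26A1 and RARB for retinoic acid. The gene lists below follow these roles.

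Of the 8 marker genes, SP5 was the one furthest above WT in KO and CYP26A1 the one furthest below it. Their promoters are printed because each holds a motif of the pathway it is known to answer. Sequences are the 250 bases before the annotated start from RefSeq, build GRCh38.p14, both on the plus strand and written 5′ to 3′, SP5 at chr2:170715087-170715336 and the more downstream of 2 listed CYP26A1 starts at chr10:93073643-93073892. Capitals mark, in SP5, the TCF/LEF motif CTTTGAT, and in CYP26A1 a pair of TGAACT, the reverse complement of the retinoic acid receptor core motif AGTTCA.
SP5: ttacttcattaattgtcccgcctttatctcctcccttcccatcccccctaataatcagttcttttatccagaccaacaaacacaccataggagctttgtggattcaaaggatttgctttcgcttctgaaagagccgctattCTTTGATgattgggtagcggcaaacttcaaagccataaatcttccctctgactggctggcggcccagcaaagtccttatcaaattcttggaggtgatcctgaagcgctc
CYP26A1: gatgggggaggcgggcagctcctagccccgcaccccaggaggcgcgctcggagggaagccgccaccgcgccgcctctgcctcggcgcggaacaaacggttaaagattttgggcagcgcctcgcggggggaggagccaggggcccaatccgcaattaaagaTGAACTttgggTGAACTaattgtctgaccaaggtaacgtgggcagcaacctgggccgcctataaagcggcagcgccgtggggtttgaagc

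CTTTGAT or its reverse complement was in 2.62% of 35116 RefSeq windows of 300 bases, which run from 250 before to 50 after a start. AGTTCA, on either strand, was in 10.4% of them. The CYP26A1 pair stands in 1 orientation with 5 bases between the copies, a spacing looked for only after the window had been read, and 4 of the 35116 windows (0.0114%) hold it. These matches describe letters and are no evidence of binding. The other motifs searched on both strands, where any overlap between motifs was allowed, were AACAATG for SOX factors, TAATCC for OTX-type factors and the retinoic acid receptor core motif AGGTCA, present in 3.33%, 6.36% and 13.8% of windows. The windows of SOX1, PAX2, DMBX1, CNTN2 and HOXA2 held none of the 5 motifs. OTX2 had 1 AGTTCA in 1 of its 2 windows. EN1 had no window among those listed, so its promoter was not searched.

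The positions of SOX1 and the marker genes are those of GENCODE 29 on GRCh38, the hg38 build of the submitters' processing notes. SOX1 lies on chromosome 13 from 112067647 to 112070488 on the plus strand. OTX2 spans 56799905 to 56810479 on the minus strand of chromosome 14, and EN1 spans 118842171 to 118847678 on the minus strand of chromosome 2. SP5 lies on chromosome 2 from 170715351 to 170718078, plus strand. HOXA2 covers 27100354 to 27102811 on the minus strand of chromosome 7. CYP26A1 lies on chromosome 10 from 93073475 to 93077890 and PAX2 on the same chromosome from 100735603 to 100829941, both on the plus strand. DMBX1 and CNTN2 are on the plus strand of chromosome 1, from 46506996 to 46514226 and from 205042937 to 205078284.

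The libraries differed between genotypes in ways that touch every count below. At 1 TPM or more, 20026 to 20338 genes were detected in KO and 17694 to 18047 in WT. Mitochondrial genes took 4.81% to 4.96% of summed TPM in KO, against 7.26% to 7.31% in WT. Median-ratio size factors, which bring the median gene ratio between libraries to 1, were 0.989 to 1.03 in KO, against 0.818 to 0.855 in WT, the lowest of the series. The median difference KO minus WT over all genes described was 0.25 on the log2(TPM + 1) scale as deposited, and 0.02 after scaling each library by its size factor. Which of the 2 scales is nearer to RNA per cell cannot be told apart in TPM, and in bulk samples fewer cells of a type cannot be told apart from less RNA per cell. Differences below are given as deposited, and to be read against that 0.25. Here "rose" and "fell" mean an adjusted p under 0.05 (limma, Benjamini-Hochberg over the 27912 genes tested) in the same direction on both scales. The labels name 2 sequencer models without saying which library ran on which, so their part was not tested.

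The label of neural progenitors was checked against its markers. SOX2, a factor shared by stem cells and neural progenitors, had 276 and 285 TPM in KO lines 26 and 48, against 287 and 297 TPM in WT 1 and 2. VIM, an intermediate filament of progenitors, had 524 and 505 TPM in KO, against 437 and 452 TPM in WT. NES, the intermediate filament nestin, had 211 and 396 TPM in KO, against 529 and 622 TPM in WT. All 4 libraries thus held high levels of these genes. PAX6, a marker of human neuroectoderm, was low, with 4.23 and 8.49 TPM in KO and 8.13 and 5.47 TPM in WT. Of the markers of other cell types, some were at or near 0 and others were not. NANOG, TBXT, SOX17, EOMES, FOXD3, KRT5 and TP63 were at most 0.369 TPM in every one of the 4 libraries, and SOX10 was at 0.624 and 0.457 TPM in KO and 0.153 and 0.083 TPM in WT. POU5F1, a pluripotency factor, had 60.7 and 60.1 TPM in KO and 61.3 and 54.1 TPM in WT, with overlapping groups. The pluripotency-associated RNA-binding protein LIN28A had 918 and 714 TPM in KO and 692 and 665 TPM in WT. The epithelial keratin KRT8 had 59.7 and 52.1 TPM in KO and 42.8 and 48.3 TPM in WT. These genes were thus present in every one of the 4 libraries.

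SOX1 was low in KO, and since the labels do not say which bases were deleted, the reads that are left do not show whether a protein is made. SOX1 had 0.705 and 3.08 TPM in KO lines 26 and 48, against 84.1 and 98 TPM in WT 1 and 2. The groups were far apart, and the difference was -5.12 ± 0.37 (log2, SE, adjusted p = 1.02e-06, limma). Levels under the other labels of the same day were lower in WT. KO had 0.866 and 1.49 TPM under CT0.4, against 4.88 and 7.01 TPM in WT, and 0.41 and 1.14 TPM under IWP2, against 0.907 and 0.99 TPM in WT. Of the 3 labels of day 4, CT1.0 had the highest WT level of SOX1 and the widest gap between KO and WT.

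Both SOX3 and SOX21, of the same SOX B group, also fell. SOX3, expressed with SOX1 and SOX2 in neural progenitors, had 6.5 and 10 TPM in KO, against 24 and 28.3 TPM in WT, a difference of -1.57 ± 0.26 (adjusted p = 0.000654). SOX21, a SOX B repressor that counteracts the others, had 47.2 and 49.7 TPM in KO, against 100 and 109 TPM in WT, a difference of -1.09 ± 0.26 (adjusted p = 0.00948). SOX2 did not pass the test, at -0.06 as deposited. Of the 4 members of this group described, 3 fell and none rose, SOX14 being below the filter. The call of SOX3 held without any 1 of the 4 libraries. SOX21 had an adjusted p of 0.0691 without KO 26 (difference -1.06) and 0.0611 without WT 2 (difference -1.03).

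Over all genes described, 3395 were higher in KO as deposited (17.2%) and 689 were lower (3.48%). After scaling, 1720 were higher and 2519 lower. On both scales, 1717 genes rose (8.67%) and 689 fell (3.48%). The counts on every list below are to be read beside these shares, and a count near them is no result about the list. Of the 1717, 360 had passed the filter through KO alone, and of the 689, 49 through WT alone. Among genes that differed by at least 1 on the log2 scale, 1053 rose and 140 fell. The as-deposited total of 4084 calls was 1603 without KO 26, 1896 without WT 1 and 2467 without WT 2. A fit of the 4 libraries alone, which has few degrees of freedom and takes its spread from those 4, called 243.

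**Figure D1:**
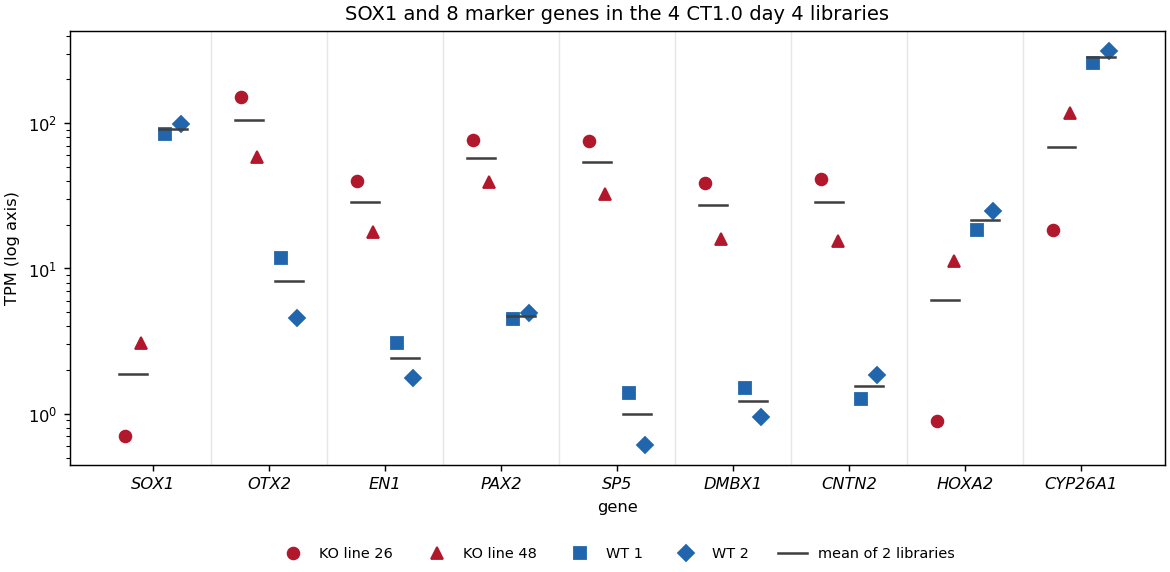
Levels of SOX1 and the 8 marker genes in the 4 libraries of CT1.0 day 4, in TPM on a log axis, with KO left of WT and 1 point per library. Of the 8 markers, 6 lie higher in both KO libraries than in either WT library, while SOX1 and the other 2 markers, HOXA2 and CYP26A1, lie lower. The markers were chosen with earlier results of these data known, so this separation is no independent support. Of all 19794 genes described, 12874 had no overlap between KO and WT.

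The midbrain genes had the highest median difference of the lists, and OTX2, OTX1 and DMBX1 led them. OTX2, the head organising factor of forebrain and midbrain, had 151 and 58.5 TPM in KO, against 11.8 and 4.55 TPM in WT, a difference of 3.49 ± 0.37 (adjusted p = 2.42e-05). DMBX1, an OTX-related factor of the early midbrain, had 38.8 and 15.9 TPM in KO, against 1.5 and 0.945 TPM in WT, a difference of 3.56 ± 0.29 (adjusted p = 3.53e-06). OTX1, the close relative of OTX2, had 42 and 13.8 TPM in KO, against 1.56 and 0.591 TPM in WT, a difference of 3.64 ± 0.39 (adjusted p = 2.58e-05). For each of the 3 genes both KO lines lay above both WT libraries, and line 26 lay above line 48.

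Of the 20 midbrain genes listed, 9 were described, and all 9 were higher in KO as deposited, 8 of them on both scales. Their median difference was 2.67, beside 0.25 over all genes described. The markers OTX2, EN1 and DMBX1, chosen with earlier results of these data known, are among the 9. The other 11 were below the filter, at most 2.72 TPM, and went both ways. HELT had 0 and 0.219 TPM in KO, against 0.821 and 2.72 TPM in WT. BARHL1 had 1.04 and 0.951 TPM in KO, against 0 TPM in both WT libraries. EN1, an engrailed factor of midbrain and isthmus, had 39.9 and 17.9 TPM in KO, against 3.09 and 1.76 TPM in WT, a difference of 3.05 ± 0.38 (adjusted p = 8.31e-05). WNT1, the ligand of the midbrain-hindbrain border, had 50.5 and 25.6 TPM in KO, against 5.59 and 4.1 TPM in WT, a difference of 2.67 ± 0.37 (adjusted p = 0.00019). POU4F1, a factor of early midbrain and sensory neurons, had 16.3 and 8.95 TPM in KO, against 1.69 and 0.869 TPM in WT, and LMX1B, needed at the isthmus, had 6.43 and 3.54 TPM in KO, against 0.668 and 0.906 TPM in WT. LMX1B passed the filter through KO alone, and its adjusted p was 0.0577 without KO 26 (1.35). SP8, a zinc-finger factor active at the isthmus, rose by 1.17. MSX1, a factor of the dorsal midline, was called as deposited (1.04, adjusted p = 0.045) and not after scaling, and as deposited it lost the call without KO 26 (0.58, adjusted p = 0.413), WT 1 (1.06, adjusted p = 0.152) or WT 2 (1.02, adjusted p = 0.149).

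At the isthmus, the paired-box factors moved with EN1. PAX2 had 76.3 and 39.2 TPM in KO, against 4.48 and 4.93 TPM in WT, a difference of 3.29 ± 0.37 (adjusted p = 3.56e-05). PAX5 had 2.38 and 1.66 TPM in KO, against 0.236 and 0.445 TPM in WT, and passed the filter through KO alone. PAX8 had 54.3 and 42.9 TPM in KO, against 12.3 and 11.2 TPM in WT, a difference of 1.95 ± 0.50 (adjusted p = 0.0144), with adjusted p of 0.106 without KO 26 (1.78), 0.0668 without WT 1 (2.02) and 0.0739 without WT 2 (1.88). FGF8, the signal of the isthmus, did not pass the test: it had 21.9 and 25.5 TPM in KO, against 20.8 and 13.1 TPM in WT, a difference of 0.49 ± 0.34 (adjusted p = 0.366). Its relative FGF17 had 7.66 and 5.17 TPM in KO, against 2.8 and 1.89 TPM in WT, a difference of 1.14 ± 0.25 (adjusted p = 0.00487), with an adjusted p of 0.0777 without KO 26 (0.90) and of 0.0593 without WT 2 (0.94).

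The response genes of FGF signalling did not move as 1 group. Rises were found in ETV4, a transcription factor induced by FGF, with 6.4 and 5.03 TPM in KO and 2.15 and 1.65 TPM in WT, in SPRY1, a feedback inhibitor, and in IL17RD, another inhibitor, whose adjusted p was 0.0716 without WT 2 (0.74). SPRY2, also a feedback inhibitor, fell, with 29.2 and 34.7 TPM in KO, against 51.9 and 42 TPM in WT, and had an adjusted p of 0.16 without KO 26 (-0.42) and of 0.183 without WT 1 (-0.39). The receptor FGFR3 fell by 1.66, with 22.8 and 74.2 TPM in KO, against 123 and 144 TPM in WT, and its adjusted p was 0.0112 with all libraries, 0.202 without KO 26 (-0.83) and 0.0704 without WT 2 (-1.55). DUSP6, an FGF-induced phosphatase, overlapped between groups, with 17.3 and 27.4 TPM in KO and 39.3 and 26 TPM in WT. Of the 15 isthmus and FGF genes described of 16, 7 rose and 2 fell, with a median difference of 1.05.

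Among WNT response genes SP5 had the highest difference. SP5, a direct WNT target that encodes a zinc-finger repressor, had 75 and 32.5 TPM in KO, against 1.39 and 0.61 TPM in WT, a difference of 4.68 ± 0.55 (adjusted p = 4.81e-05). Both KO libraries were far above both WT libraries. AXIN2, the feedback scaffold that promotes degradation of beta-catenin, had 56.9 and 45.4 TPM in KO, against 22.6 and 24.5 TPM in WT, a difference of 1.08 ± 0.19 (adjusted p = 0.00141). ZNRF3, a ligase that removes WNT receptors, had 28.6 and 20.6 TPM in KO, against 10.6 and 10.8 TPM in WT, and TNFRSF19, a receptor gene induced by WNT, had 37.4 and 21 TPM in KO, against 10.5 and 7.65 TPM in WT.

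In all, 6 of the 13 WNT targets described (of 18 listed) rose and none fell, with a median of 1.04. NKD1, an antagonist of Dishevelled, and WIF1, a secreted WNT binder, were among the 6. NKD1 had an adjusted p of 0.0186 (1.15), which was 0.115 without KO 26 (1.08), 0.0526 without KO 48 (1.23), 0.114 without WT 1 (1.07) and 0.06 without WT 2 (1.23). WIF1 passed the filter through KO alone and had an adjusted p of 0.0764 without KO 26 (1.09). LEF1, a partner of beta-catenin, was called as deposited (0.96, adjusted p = 0.0121) and not after scaling (adjusted p = 0.0578), and the call as deposited ended without KO 26 (0.99, adjusted p = 0.0632), KO 48 (0.94, adjusted p = 0.0562) or WT 2 (0.84, adjusted p = 0.0886). The related TCF7 lay the other way without passing the test as deposited, at 2.53 and 1.61 TPM in KO, against 4.71 and 5.12 TPM in WT. After scaling, 1 of the 13 WNT targets described was called lower. CCND1 and FZD7, which are also WNT-responsive in some tissues, did not pass the test and changed sign with scaling.

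The WNT ligands WNT10B and WNT5B rose with WNT1. WNT10B, a neighbour of WNT1 in the genome, had 22.9 and 12.6 TPM in KO, against 2.13 and 0.851 TPM in WT, a difference of 2.91 ± 0.34 (adjusted p = 4.35e-05). WNT5B had 8.46 and 5.34 TPM in KO, against 2.52 and 2.93 TPM in WT, and its adjusted p of 0.0176 (1.06) became 0.194 without KO 26 (0.77), 0.113 without WT 1 (0.98) and 0.0554 without WT 2 (1.14). WLS, which carries WNTs to the cell surface, overlapped between groups at 173 and 166 TPM in KO and 179 and 163 TPM in WT. In all, 3 of the 9 ligand genes described of 17 rose, none fell, and the median was -0.01.

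All 4 of the WNT receptor and antagonist genes that fell are secreted antagonists. SFRP4, a secreted frizzled-related protein that binds WNTs, had 2.09 and 8.31 TPM in KO, against 63.9 and 86 TPM in WT, a difference of -3.81 ± 0.39 (adjusted p = 2.15e-05). SFRP1 had 284 and 324 TPM in KO, against 481 and 447 TPM in WT, and SFRP2 had 113 and 122 TPM in KO, against 203 and 214 TPM in WT. Both SFRP1 and SFRP2 fell, by 0.61 and by 0.83, and the KO libraries lay below the WT libraries in each. The adjusted p of SFRP1 was 0.0069, and 0.0839 without KO 26 (-0.51) and 0.0648 without WT 1 (-0.56). That of SFRP2 was 0.0177, and 0.115 without KO 26 (-0.77), 0.0741 without WT 1 (-0.87) and 0.0882 without WT 2 (-0.79). CER1, an antagonist of WNT, BMP and Nodal, was low in all 4 libraries, at 0 and 0.231 TPM in KO and 1.44 and 1.21 TPM in WT, passed the filter through WT alone, and fell.

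The receptors FZD5 and FZD3 rose, with 22.4 and 12.1 TPM in KO against 6.12 and 6.75 TPM in WT for FZD5, and 77.2 and 71.1 TPM in KO against 36.9 and 32.5 TPM in WT for FZD3. RSPO2, a ligand that amplifies WNT signalling, had 8.8 and 2.5 TPM in KO, against 1.13 and 0.391 TPM in WT, a difference of 1.77 ± 0.44 (adjusted p = 0.013). Its adjusted p was 0.211 without KO 26 (1.02) and 0.108 without WT 2 (1.46). The co-receptor LRP6 had 39.5 and 34.9 TPM in KO and 28.9 and 28 TPM in WT and did not pass the test (adjusted p = 0.0935). Of 21 receptor and antagonist genes described of 25, 3 rose and 4 fell, around a median of 0.37.

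**Figure D2:**
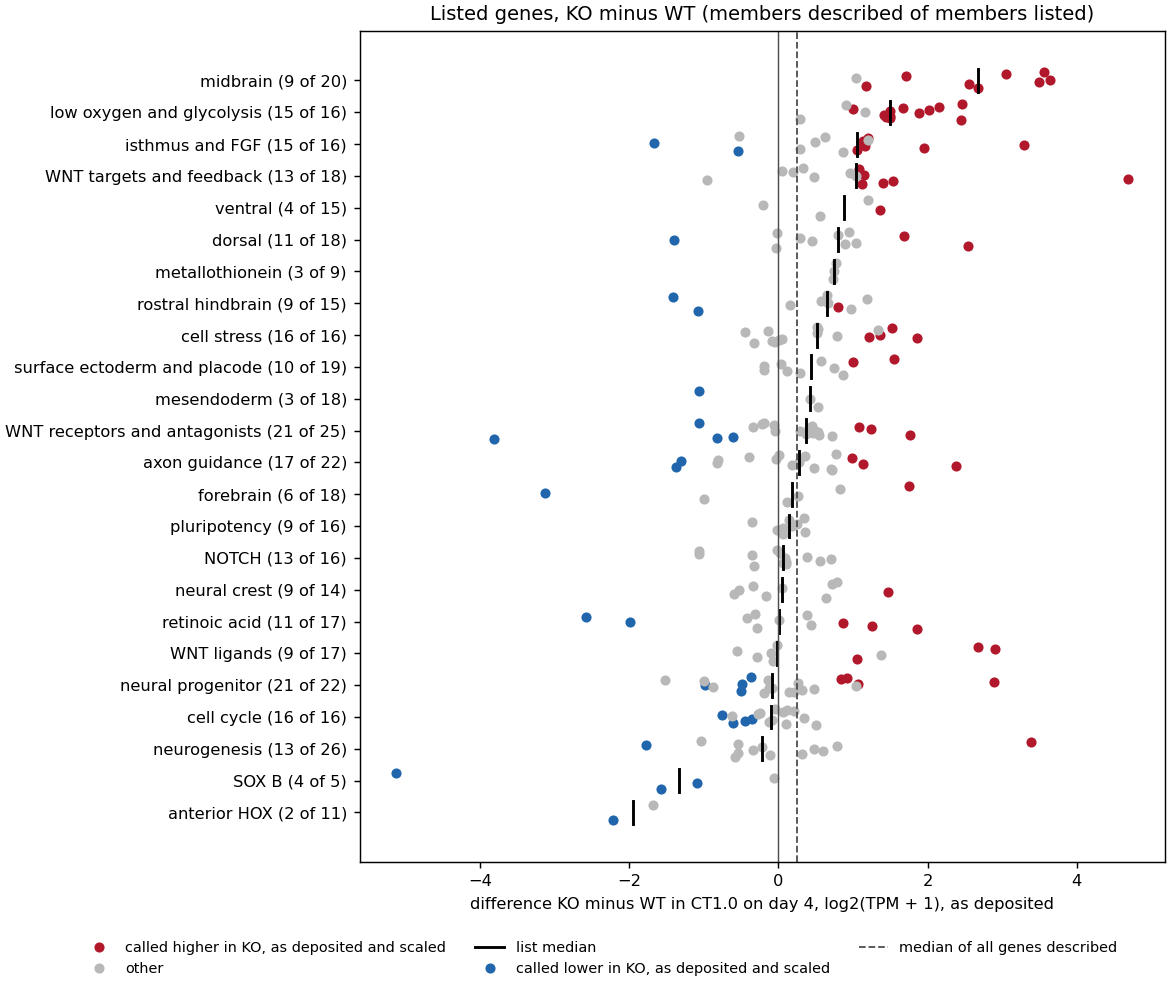
Difference KO minus WT in CT1.0 on day 4 on the log2(TPM + 1) scale, as deposited, for each described member of 24 gene lists, with the list median as a bar and the median of all genes as a dashed line. Red points rose and blue points fell on both scales, and grey points are the other members; the midbrain list has the highest median (2.67) and the low oxygen list the next (1.496).

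The hindbrain genes HOXA2, GBX2 and MEIS2 fell, and were lower in KO line 26 than in line 48. HOXA2, the most anterior-reaching HOX gene of the hindbrain, had 0.899 and 11.3 TPM in KO lines 26 and 48, against 18.5 and 24.8 TPM in WT, a difference of -2.22 ± 0.53 (adjusted p = 0.00942). Without KO 26 the difference was -0.87 (adjusted p = 0.112), and without WT 2 it was -2.02 (adjusted p = 0.0679). HOTAIRM1, a long RNA read from the other strand at the anterior end of the HOXA cluster, had 5.81 and 49.9 TPM in KO and 49.4 and 70.2 TPM in WT, so that KO line 48 lay within the WT range. It did not pass the test as deposited (adjusted p = 0.0567) and was called lower after scaling. Library strand is not stated, so reads of HOTAIRM1 and of an overlapping gene cannot be told apart. Only these 2 of 11 anterior HOX genes passed the filter, and none of 17 posterior HOX and CDX genes did, the highest level among those being 0.944 TPM.

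GBX2, the hindbrain-side partner of OTX2 at the isthmus, had 1.79 and 5.76 TPM in KO, against 11.9 and 9.37 TPM in WT, a difference of -1.41 ± 0.39 (adjusted p = 0.0214). Its adjusted p was 0.297 without KO 26 (-0.77), 0.142 without WT 1 (-1.26) and 0.0559 without WT 2 (-1.57). MEIS2, a HOX cofactor, had 25.7 and 46.7 TPM in KO, against 70 and 79.2 TPM in WT, with adjusted p of 0.0107 (-1.08), of 0.177 without KO 26 (-0.66) and of 0.0719 without WT 2 (-0.99). The Iroquois gene IRX2 had 35.1 and 31.3 TPM in KO and 23 and 21 TPM in WT (adjusted p = 0.0946), which did not pass the test. Of 9 rostral hindbrain genes described of 15, 1 rose and 2 fell, GBX2 and MEIS2 being those that fell. Of these 9, 7 had a difference above 0, and the median was 0.65.

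Among retinoic acid genes, CYP26A1 and RARB fell, and STRA6, RDH10 and RARG rose. CYP26A1, the enzyme that breaks retinoic acid down and that retinoic acid induces, had 18.5 and 118 TPM in KO, against 259 and 314 TPM in WT, a difference of -2.57 ± 0.55 (adjusted p = 0.00445). Without KO 26 it was -1.27 (adjusted p = 0.0638). RARB, a receptor that retinoic acid also induces, had 0.889 and 5.43 TPM in KO, against 11.6 and 14.1 TPM in WT, a difference of -1.98 ± 0.40 (adjusted p = 0.00341), and -1.10 without KO 26 (adjusted p = 0.0623). In both genes the KO lines differed from each other by more than the WT libraries did, with line 26 the lower.

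The genes that rose include those of retinol uptake and oxidation. STRA6, a membrane receptor for retinol, had 28.5 and 18.7 TPM in KO, against 6.4 and 5 TPM in WT, a difference of 1.86 ± 0.34 (adjusted p = 0.00157). RDH10, which oxidises retinol, had 3.23 and 3.96 TPM in KO, against 1.06 and 0.802 TPM in WT, with adjusted p of 0.00803 (1.25), of 0.0533 without KO 48 (1.13) and of 0.0583 without WT 2 (1.15). The receptor RARG rose by 0.87 and had an adjusted p of 0.0577 without KO 26 (0.73). The binding proteins CRABP1 and CRABP2 did not pass the test, CRABP2 having 512 and 518 TPM in KO and 393 and 398 TPM in WT. In all, 3 of 11 genes described of 17 rose and 2 fell, with a median of 0.01.

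Of the forebrain genes, FEZF2 fell and EMX2 rose. FEZF2, a forebrain zinc-finger factor, fell, with 0.334 and 1.54 TPM in KO, against 12.6 and 18 TPM in WT, a difference of -3.12 ± 0.36 (adjusted p = 4.08e-05). EMX2, a homeobox factor of the dorsal forebrain, rose, with 3.86 and 1.66 TPM in KO and 0.149 and 0 TPM in WT, passed the filter through KO alone, and had an adjusted p of 0.0573 without KO 26 (1.31). FEZF1, the paralogue of FEZF2, was called as deposited (0.83, adjusted p = 0.0435) and not after scaling (adjusted p = 0.162), and lost that call without KO 26 (0.39, adjusted p = 0.466), WT 1 (1.07, adjusted p = 0.0524) or WT 2 (0.59, adjusted p = 0.284). HESX1, needed for the anterior forebrain, overlapped between groups at 6.1 and 3.59 TPM in KO and 3.97 and 3.6 TPM in WT. Of 6 genes described of 18, 1 rose and 1 fell.

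General neural progenitor genes also went both ways, 4 up and 4 down of 21 described of 22, around a median of -0.08. Over all genes described, 8.67% rose and 3.48% fell. LHX5, a LIM-homeobox factor, had 17.3 and 8.73 TPM in KO, against 0.987 and 0.642 TPM in WT, passed the filter through KO alone, and had a difference of 2.89 ± 0.36 (adjusted p = 9.47e-05). MSI1, the RNA-binding protein Musashi, had 73.1 and 66 TPM in KO, against 30.7 and 34.8 TPM in WT, a difference of 1.07 ± 0.13 (adjusted p = 5.47e-05). DACH1 and FABP7 rose by 0.91 and 0.84, and DACH1 had an adjusted p of 0.0821 without KO 26 (0.78) and of 0.0807 without WT 2 (0.73). NES, NCAM1, CDH2 and SOX9 fell, the middle pair being adhesion molecules and SOX9 a factor of glial competence. NCAM1 lost its call without KO 26 (-0.35, adjusted p = 0.108) or WT 1 (-0.46, adjusted p = 0.0557). SOX9 lost it without KO 26 (-0.26, adjusted p = 0.45), WT 1 (-0.56, adjusted p = 0.114) or WT 2 (-0.44, adjusted p = 0.206), and CDH2 without any 1 of the 4 libraries (-0.44 to -0.29, adjusted p 0.0835 to 0.234). NES had an adjusted p of 0.0304 (-0.99), of 0.36 without KO 26 (-0.54), of 0.0831 without WT 1 (-1.11) and of 0.157 without WT 2 (-0.87).

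Along the dorsal to ventral axis, PAX3, a dorsal neural tube factor, had 39.7 and 24.7 TPM in KO, against 4.96 and 4.15 TPM in WT, a difference of 2.55 ± 0.28 (adjusted p = 3.22e-05). The BMP-responsive inhibitors ID1 and ID3 moved in opposite directions. ID1 had 7.48 and 5.68 TPM in KO, against 0.873 and 1.91 TPM in WT, and ID3 had 38 and 83 TPM in KO, against 129 and 173 TPM in WT. ID3 fell by 1.39 and had an adjusted p of 0.0632 without KO 26 (-0.84). Of 11 dorsal genes described of 18, 2 rose and 1 fell. Among 4 ventral genes described of 15, HHIP, an inhibitor of Hedgehog, was the one that rose, with 2.42 and 2.22 TPM in KO, against 0.347 and 0.23 TPM in WT. HHIP passed the filter through KO alone, and its adjusted p of 0.0288 (1.37) became 0.136 without KO 26 (1.32), 0.0834 without KO 48 (1.41), 0.103 without WT 1 (1.43) and 0.123 without WT 2 (1.30).

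Neuronal genes showed 1 rise and 1 fall among 13 described of 26. CNTN2, a contactin adhesion molecule of early axons, had 41.5 and 15.5 TPM in KO, against 1.26 and 1.86 TPM in WT, a difference of 3.38 ± 0.52 (adjusted p = 0.000431). EBF2, a factor of migrating young neurons, had 0.377 and 2.25 TPM in KO, against 5.34 and 7.2 TPM in WT, and fell by 1.77. The general neuronal tubulin TUBB3 did not pass the test, at 61.3 and 77.7 TPM in KO and 99.9 and 107 TPM in WT (adjusted p = 0.25). ELAVL2, an RNA-binding protein of neurons, was called higher as deposited and not after scaling, and the call as deposited ended without KO 26 (0.72, adjusted p = 0.128), KO 48 (0.84, adjusted p = 0.0546) or WT 2 (0.59, adjusted p = 0.176).

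Of 13 NOTCH genes described of 16, none rose or fell on both scales, JAG2 being called as deposited alone (0.71, adjusted p = 0.048) and not without any 1 of the 4 libraries (0.61 to 0.81, adjusted p 0.0931 to 0.239). After scaling, 1 of the 13 NOTCH genes was called lower. Of 17 axon guidance genes described of 22, 3 rose and 2 fell. SEMA3A, a repulsive ligand, had 45 and 21.9 TPM in KO, against 5.91 and 4.67 TPM in WT, a difference of 2.38 ± 0.29 (adjusted p = 7.17e-05). ROBO1, a receptor for SLIT ligands, rose by 1.13. SEMA5A had 5.96 and 11.8 TPM in KO, against 23.5 and 23.6 TPM in WT. NRP2, a semaphorin co-receptor, had 92.3 and 169 TPM in KO, against 294 and 326 TPM in WT, and an adjusted p of 0.0619 without KO 26 (-0.87).

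The low oxygen and glycolysis genes formed the other list with a high median, 1.496, and 12 of 15 described of 16 rose with none falling. VEGFA, the hypoxia-induced vascular growth factor, had 113 and 149 TPM in KO, against 20.1 and 26.1 TPM in WT, a difference of 2.45 ± 0.21 (adjusted p = 4.82e-06). ADM, the peptide adrenomedullin, had 8.07 and 18.8 TPM in KO, against 1.07 and 1.84 TPM in WT, a difference of 2.46 ± 0.44 (adjusted p = 0.00131). ENO2, a glycolytic enolase, had 183 and 152 TPM in KO, against 36.8 and 44.7 TPM in WT, a difference of 2.02 ± 0.23 (adjusted p = 3.84e-05). SLC2A1 and PGK1, a glucose transporter and a glycolytic kinase, had 587 and 645 TPM and 764 and 864 TPM in KO, against 221 and 216 TPM and 293 and 304 TPM in WT. Of the 3 that did not rise on both scales, LDHA and ALDOC, a lactate dehydrogenase and an aldolase, were called higher as deposited alone. LDHA had 223 and 187 TPM in KO, against 77 and 107 TPM in WT, a difference of 1.16 (adjusted p = 0.0129, and 0.0518 after scaling), and lost the call without KO 26 (1.03, adjusted p = 0.106) or WT 1 (0.93, adjusted p = 0.134). ALDOC had 50.3 and 68.1 TPM in KO, against 26.9 and 34.9 TPM in WT, a difference of 0.91 (adjusted p = 0.0146, and 0.0759 after scaling), and lost it without KO 48 (0.70, adjusted p = 0.125) or WT 1 (0.73, adjusted p = 0.144). The groups overlapped in SLC2A3, another glucose transporter, with 259 and 535 TPM in KO and 318 and 290 TPM in WT. Summed over the list, the genes took 2688 to 3168 TPM in KO, against 1167 to 1199 TPM in WT.

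ANKRD37, a hypoxia-induced gene, had 24.8 and 22.5 TPM in KO, against 5.66 and 3.63 TPM in WT, and an adjusted p of 0.00994 (2.15), of 0.0703 without KO 26 (2.08) and of 0.0781 without WT 2 (1.89). Of 16 cell stress genes, 4 rose and none fell. ATF3, a stress-induced factor, had 25.3 and 18.4 TPM in KO, against 5.96 and 7.91 TPM in WT, and GADD45A, a growth arrest gene, had 12.8 and 9.42 TPM in KO, against 4.28 and 3.17 TPM in WT. The heat shock genes HSPA1A and HSPA1B rose by 1.22 and 1.86, but they are near-identical copies, so the split of reads between them is uncertain. HSPA5 and XBP1, of the unfolded protein response, did not pass the test, with 155 and 140 TPM in KO and 137 and 147 TPM in WT for HSPA5. Of 16 cell cycle genes, 4 fell and none rose, and after scaling 8 fell. PCNA, the replication clamp, had 173 and 200 TPM in KO, against 293 and 275 TPM in WT, and an adjusted p of 0.00938 (-0.60), of 0.106 without KO 26 (-0.50) and of 0.0758 without WT 1 (-0.56). CCNE1, the G1/S cyclin, fell by 0.75 and had an adjusted p of 0.23 without KO 26 (-0.51) and of 0.147 without WT 1 (-0.65). Whether low oxygen, stress or cell cycle genes have a part in the regional differences was not tested.

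Over all genes described, 8.67% rose and 3.48% fell, and the small counts on the lists of other cell types stand beside that background. Of 9 pluripotency genes described of 16, none rose or fell on both scales, and their summed level was 1103 to 1333 TPM in KO, against 1010 to 1044 TPM in WT. Of 3 mesendoderm genes described of 18, CER1 fell, having passed the filter through WT alone, and the sum was 7.39 to 9.90 TPM in KO, against 5.25 to 6.49 TPM in WT. Of 9 neural crest genes described of 14, SNAI1, a factor of cells that leave an epithelium, rose, with 7.96 and 5.37 TPM in KO and 1.52 and 1.97 TPM in WT. The neural crest sum was 111 to 141 TPM in KO, against 145 to 150 TPM in WT. Of 10 surface ectoderm and placode genes described of 19, CDH1 and EPCAM rose, 2 epithelial adhesion genes, and the sum was 131 to 152 TPM in KO, against 107 to 120 TPM in WT. CDH1 had 3.46 and 2.34 TPM in KO, against 0.216 and 0.425 TPM in WT, passed the filter through KO alone, and had an adjusted p of 0.118 without KO 26 (1.35) and of 0.0957 without WT 1 (1.44). None of the 3 metallothionein genes described of 9 passed the test. The part of other cell types in the regional differences was not tested.

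By size alone, the 10 highest protein-coding genes were SP5, OTX1, DMBX1, OTX2, CNTN2, PAX2, EN1, HES7, WNT10B and LHX5, a repeat of the naming rule for protein-coding genes chosen after values were seen. HES7, a clock gene of the presomitic mesoderm in mouse, had 10.1 and 10.8 TPM in KO, against 0.0392 and 0.881 TPM in WT, passed the filter through KO alone, and had a difference of 3.03 ± 0.33 (adjusted p = 3.19e-05). The 10 lowest were SOX1, SFRP4, FEZF2, NTRK2, NPTX1, HTR2C, VGLL3, CYP26A1, SPOCK1 and HOXA2. NTRK2, the BDNF receptor, had 0.677 and 9.76 TPM in KO, against 27 and 32.2 TPM in WT. NPTX1, a neuronal pentraxin, had 1.15 and 9.59 TPM in KO, against 26.4 and 40.2 TPM in WT. HTR2C, a serotonin receptor, had 1.11 and 5 TPM in KO, against 19.8 and 26.5 TPM in WT.

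VGLL3, a transcriptional cofactor of TEAD proteins, had 23.6 and 134 TPM in KO, against 331 and 375 TPM in WT. SPOCK1, a secreted proteoglycan, had 11.8 and 74.4 TPM in KO, against 165 and 174 TPM in WT. In these last 5 genes, as in HOXA2 and CYP26A1, line 26 lay below line 48 and both lay below WT. Their differences were -2.84 in NTRK2, -2.82 in NPTX1, -2.75 in HTR2C, -2.62 in VGLL3 and -2.46 in SPOCK1. Without KO 26 they were -1.502, -1.67, -1.99, -1.39 and -1.18 in the same order, and the 5 calls held. Short RNA genes also came up under the first form of the rule, where poly(A)-selected libraries give little basis for a level. The miRNA genes MIR548AR, MIR548L and MIR556 ranged from 9.02 to 19.6 TPM in KO and had 0 TPM listed for WT 1 and WT 2, so that they passed the filter through KO alone, and MIR548AZ had 22.6 and 23 TPM in KO and 3.75 and 0 TPM in WT. The call of MIR548AR ended without any 1 of the 4 libraries, that of MIR548AZ without KO 26, KO 48 or WT 2, and that of MIR556 without KO 48 (adjusted p = 0.0511). RN7SK, a small nuclear RNA without a poly(A) tail, was listed at 0 in both KO libraries and at 104 and 24.1 TPM in WT, and passed the filter through WT alone.

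The 2 KO lines differed in how far they lay from WT. Line 26 was the farther in 1158 of the 1717 genes that rose and in 505 of the 689 that fell. All 9 midbrain genes were higher in line 26 than in line 48, by a median of 0.95 on the log2 scale. Over all genes described, 10923 of 19794 were higher in line 26, with a median of 0.03. The low oxygen list did not follow this order, as 5 of its 15 genes were higher in line 26 and its median difference between lines was -0.18. The residual SOX1 level was lower in line 26 (0.705 TPM) than in line 48 (3.08 TPM), and its part in the line differences was not tested. With 1 library per line, differences between lines have no replicate check.

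**Figure D3:**
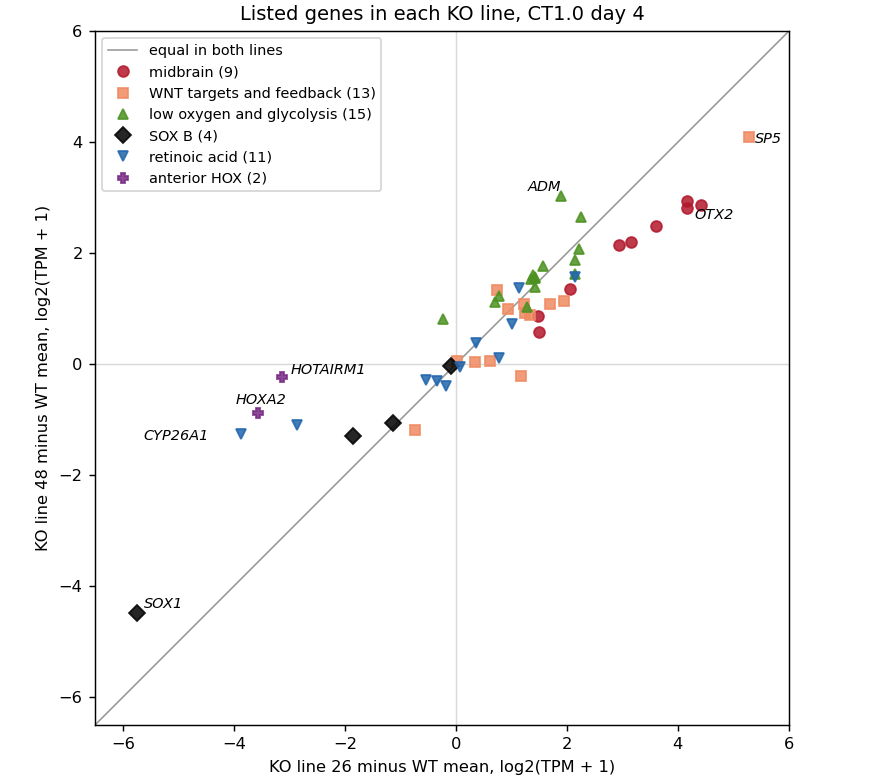
Difference from the WT mean in KO line 26 (x axis) and in KO line 48 (y axis), log2(TPM + 1), for the described members of 6 lists, with a line where both are equal. Midbrain genes and SP5 lie to the right of the line and HOXA2, HOTAIRM1 and CYP26A1 to the left of it, whereas low oxygen genes lie on both sides.

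The effect of the KO was next compared with that under CT0.4 on the same day, with no library shared. Few genes passed this test: 75 of 19794 (0.379%), 55 higher under CT1.0 and 20 lower, or 51 and 56 after scaling. The count depended on each library, with 22 without KO 26 and 259 without KO 48 of CT1.0, 29 without KO 26 and 165 without KO 48 of CT0.4, 46 without WT 1 and 17 without WT 2 of CT1.0, and 40 without WT 1 and 15 without WT 2 of CT0.4. SOX1, OTX2, DMBX1 and SFRP4 kept the call without any 1 library. SOX1 is the deleted gene. The others were chosen with the CT1.0 day 4 values known, and those values enter this contrast. Their calls are thus no independent support. OTX2 overlapped between KO and WT under CT0.4, with 394 and 489 TPM in KO and 427 and 415 TPM in WT, and the 2 effects differed by 3.43 ± 0.52 (adjusted p = 0.00681). DMBX1 had 73.2 and 97 TPM in KO and 55.5 and 68.7 TPM in WT under CT0.4, and its effects differed by 3.11 ± 0.41 (adjusted p = 0.00203).

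SFRP4 was at most 0.216 TPM in all 4 CT0.4 libraries, which left no room for a fall there. Its effects differed by -3.85 ± 0.56 (adjusted p = 0.00441). HOXA2 was likewise at most 0.0795 TPM in all 4 CT0.4 libraries, and CYP26A1 was at 2.86 and 1.88 TPM in KO and 1.44 and 2.45 TPM in WT there. Neither difference of effects passed the test (adjusted p = 0.215 and 0.139). SP5 had 60.1 and 45.4 TPM in KO and 58.4 and 47.6 TPM in WT under CT0.4, and its effects differed by 4.70 ± 0.77 (adjusted p = 0.015), with an adjusted p over 0.05 without KO 26 of CT1.0 (0.0803), WT 2 of CT1.0 (0.0708), WT 1 of CT0.4 (0.0562) or WT 2 of CT0.4 (0.0611). Among the lists, 3 of 9 midbrain genes, OTX1 with the 2 above, and 0 of 2 anterior HOX genes passed. The call of OTX1 had an adjusted p of 0.0244 and ended in 5 of 8 fits with a library left out.

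Summed levels of KO CT1.0 can be set beside WT of both labels. The midbrain list summed to 188 to 416 TPM in KO CT1.0 and 39.3 to 50.7 TPM in WT CT1.0, and to 720 to 768 TPM in WT CT0.4. The anterior HOX list summed to 7.09 to 62.2 TPM in KO CT1.0 and 70.0 to 97.5 TPM in WT CT1.0, and to 0.16 to 0.31 TPM in WT CT0.4. The low oxygen list did not lie between them, with 2688 to 3168 TPM in KO CT1.0, above both the 1167 to 1199 TPM of WT CT1.0 and the 749 to 754 TPM of WT CT0.4. These sums are a description, and no test was made between KO of 1 label and WT of the other.

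**Figure D4:**
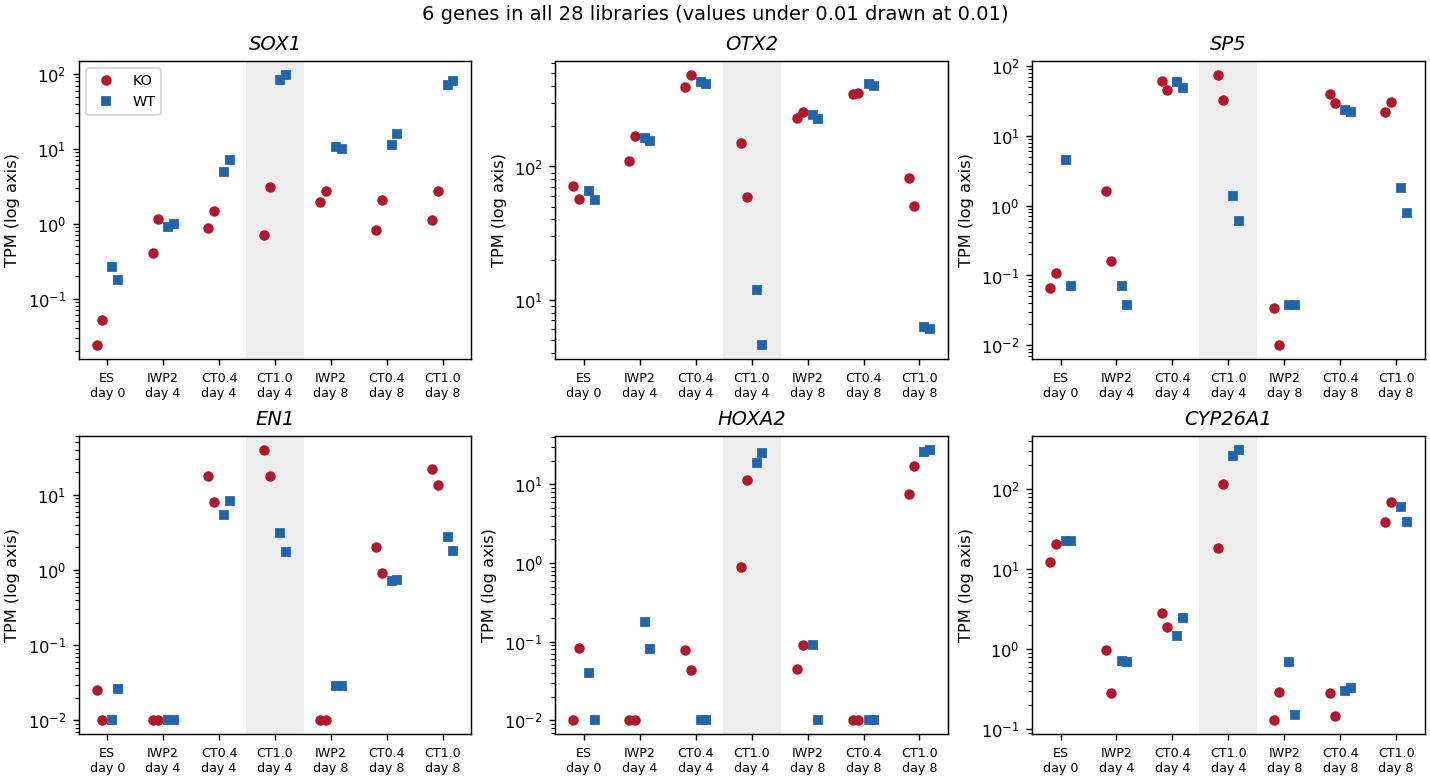
Levels of SOX1, OTX2, SP5, EN1, HOXA2 and CYP26A1 in all 28 libraries, in TPM on a log axis, by label and day, with KO left of WT and 1 point per library. KO and WT stand apart in all 6 genes under CT1.0 on day 4, as they do in 12874 of the 19794 genes described. Under CT0.4 on day 4, OTX2, SP5 and CYP26A1 overlap between KO and WT, and SOX1 does not.

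The low oxygen list also had a high median KO effect under CT0.4. That median KO effect was 1.30 under CT0.4 and 1.496 under CT1.0, and 0.09 under IWP2, whereas for the 9 midbrain genes the medians were 0.55, 2.67 and 0.00. VEGFA had 64.3 and 77.6 TPM in KO and 17.4 and 14 TPM in WT under CT0.4. Of the 15 low oxygen genes described, 1 had an effect that differed between CT1.0 and CT0.4: SLC2A3 had an adjusted p of 0.0459, and under CT0.4 it had 133 and 164 TPM in KO and 32.6 and 29.7 TPM in WT. A p that misses the threshold in the other 14 does not show that the effects are equal. WT libraries of CT1.0 and CT0.4 on day 4 also had fewer detected genes (17694 to 18233) than the other 24 libraries of the series (18876 to 20338), and the part of that in the low oxygen genes was not tested.

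**Figure D5:**
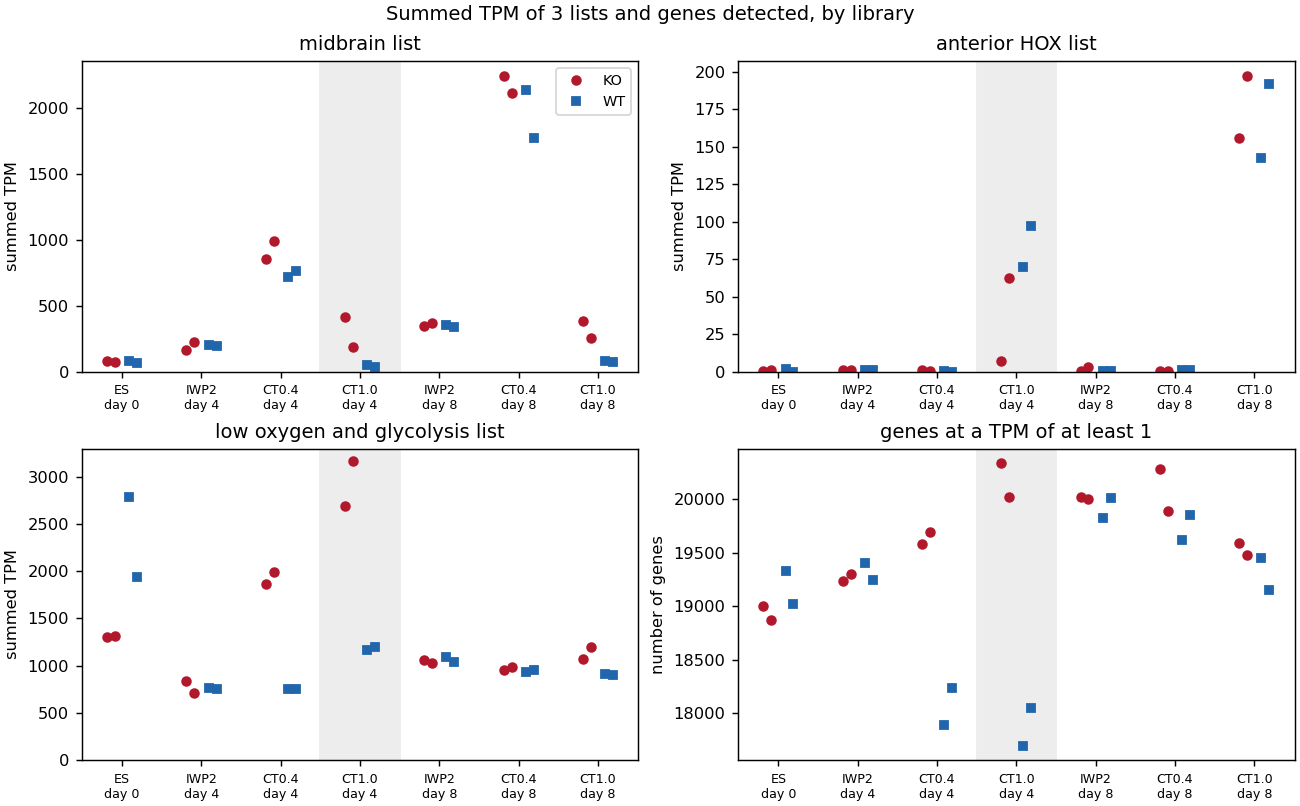
Summed TPM of the midbrain, anterior HOX and low oxygen lists and the number of genes with at least 1 TPM, for each of the 28 libraries by label and day, with KO left of WT. On day 4 the low oxygen sum, the gene number and the midbrain sum are higher in both KO libraries than in either WT library under both CT labels, the midbrain sum being 188 to 416 in KO against 39.3 to 50.7 in WT under CT1.0 and 855 to 991 in KO against 720 to 768 in WT under CT0.4.

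In the comparison with IWP2, 1379 of 19794 genes (6.97%) had an effect that differed from that under CT1.0, 1204 higher and 175 lower, or 561 and 827 after scaling. The count was 503 without KO 26 and 597 without WT 1 of CT1.0, 745 without KO 26 and 914 without KO 48 of IWP2, and 642 without WT 1 and 807 without WT 2 of IWP2. OTX2 had 110 and 170 TPM in KO and 163 and 155 TPM in WT under IWP2, and its effects differed by 3.71 ± 0.52 (adjusted p = 0.000864). SP5 was at most 1.64 TPM in every IWP2 library of day 4, and its effects differed by 3.95 ± 0.77 (adjusted p = 0.00775). EN1 was listed at 0 in all 4 of them. Of the lists, 6 of 9 midbrain genes and 9 of 15 low oxygen genes had a larger KO effect under CT1.0 on both scales. Neither SOX1 nor CNTN2, at 2.39 and 11 TPM in KO and 10.3 and 8.25 TPM in WT under IWP2, lost the call without any 1 library.

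On day 8 of CT1.0, KO lay on the same side of WT as on day 4, without overlap, for SOX1 and 6 of the 8 markers, CNTN2 and CYP26A1 being the exceptions. Lack of overlap is common with 2 libraries a group, as 12874 of the 19794 genes described had none on day 4. The share on day 8 was not counted. OTX2 had 82.6 and 50.7 TPM in KO and 6.19 and 5.99 TPM in WT, SP5 had 21.8 and 30.3 TPM in KO and 1.78 and 0.782 TPM in WT, and EN1 had 22.3 and 13.4 TPM in KO and 2.74 and 1.81 TPM in WT. The difference between the days in the KO effect did not pass the test for SOX1 (adjusted p = 0.738), OTX2 (0.813), EN1 (0.597) or SP5 (0.44). PAX2 had 7.78 and 9.29 TPM in KO and 3.15 and 1.32 TPM in WT on day 8 (adjusted p of the difference 0.0589), and DMBX1 had 10 and 12.4 TPM in KO and 1.72 and 1.01 TPM in WT (adjusted p 0.0864). HOXA2 had 7.6 and 17 TPM in KO and 25.6 and 27.6 TPM in WT (adjusted p 0.434).

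Other genes differed between the days. Of 19794, 2010 (10.2%) had an effect that differed, 1801 higher on day 4 and 209 lower, or 324 and 714 after scaling, and the count was 871 without KO 26 and 726 without WT 1 of day 4, and 756 without KO 26 and 593 without WT 1 of day 8. CNTN2, which rose on day 4, had 2.6 and 6.51 TPM in KO and 12.7 and 8.47 TPM in WT on day 8, and its effects differed by 4.51 ± 0.73 (adjusted p = 0.00247). LHX5 had 0.727 and 0.382 TPM in KO and 2.19 and 2.32 TPM in WT on day 8, and its effects differed by 3.96 ± 0.52 (adjusted p = 0.00064). For CYP26A1 the KO and WT libraries overlapped on day 8, at 39.5 and 69.3 TPM in KO and 60.3 and 38.8 TPM in WT. Its difference between days was -2.68 ± 0.77 (adjusted p = 0.0429), and leaving out 1 library ended that call in 7 of 8 fits.

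VEGFA and HSPA1B had smaller KO effects on day 8, at 0.74 and 0.20, than on day 4, at 2.45 and 1.86 (adjusted p = 0.00353 and 0.00064 for the difference). Over the low oxygen list, the median KO effect was 0.98 on day 8 and 1.496 on day 4. Of its 15 genes, 4 had an effect that differed between the days as deposited, and 3 on both scales. MSX2, a factor of the dorsal midline, had a larger KO effect on day 8. It had 1.65 and 1.13 TPM in KO and 0.343 and 0.215 TPM in WT on day 4, where it passed the filter through KO alone, and 40 and 25.6 TPM in KO and 1.74 and 0.597 TPM in WT on day 8, so that its effects differed by -3.09 ± 0.47 (adjusted p = 0.0018). NTN1, a floor plate guidance ligand, was low on day 4, at 2.38 and 1.67 TPM in KO and 1.31 and 1.68 TPM in WT. On day 8 it had 0.718 and 5.73 TPM in KO, against 34.9 and 32.7 TPM in WT. The 2 days share line numbers but no library.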

How the data were processed

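Poly(A) RNA of 28 H9-derived libraries was sequenced on either of a pair of Illumina models, per the labels. The deposited table gives TPM per GENCODE gene. CASAVA 1.7, the program Salmon 0.8.2 and the build hg38 appear in the submitters' processing notes without a stated role. TPM keeps no read depth, so counting precision is unknown and no counting interval is given.

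The deposited TPM values were taken as log2(TPM + 1), and genes with at least 1 TPM in at least 2 of the 28 libraries were tested (27912 genes). limma 3.58.1 in R 4.3.3 fitted 14 group means with a variance trend (14 residual degrees of freedom). Adjusted p-values are Benjamini-Hochberg over those genes, with a threshold of 0.05. Described genes had at least 1 TPM in 2 or more of the 4 CT1.0 day 4 libraries (19794). The fit was repeated after median-ratio scaling from 18840 genes. Differences of KO effects were contrasts of the same fit. Libraries numbered alike may come from the same line but nothing states separate cultures, so p-values measure only the spread between libraries. That spread is pooled for each gene over all 14 groups. Where the KO lines lie far apart, as in HOXA2 and CYP26A1, the SE therefore does not show their own spread. An exact permutation of 2 against 2 cannot go below 0.333. The procedure was tested on simulated data.

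The gene lists, the markers and the comparisons were chosen with earlier results of these data known, some lists were taken over from that earlier work, and none is independent support. Genes named are SOX1, the 8 markers, the 10 highest and 10 lowest called on both scales with no overlap and a difference of at least 1, up to 4 called and 2 uncalled members of each list, and the 5 highest and 5 lowest of each difference of effects, clone-named, pseudogene and similar rows left out. A repeat among protein-coding genes and 27 further list members (AXIN2, FGF17, SFRP1 and the like) were named after their values were seen. Alternatives were the scaling, a pseudocount of 0.1, no filter, no variance trend, a fold threshold, only the libraries compared, a replicate block and leaving out each library. No group's 2 libraries held identical values. Results on some of the listed genes are not reported here.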

Additional observations from a re-analysis of the deposited data

Results flagged for a closer look

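The KO effect under CT1.0 on day 4 differed from the KO effect elsewhere in the genes below, by the contrast of the 2 effects in the limma fit (adjusted p under 0.05). Values are the effect under CT1.0 on day 4 minus the other effect on the log2(TPM + 1) scale. Genes listed at 0 in a whole group have values that depend on the added 1. Apart from SOX1, the genes were chosen with values of these libraries known, so the calls are no independent support.

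Against CT0.4 on day 4, the effect differed by 4.698 in SP5, 3.434 in OTX2, 3.245 in LHX5, 3.113 in DMBX1, 3.087 in OTX1 and 3.008 in PAX2. It differed by -3.852 in SFRP4, -3.789 in SNORD15A, -3.451 in SOX1, -3.028 in HTR2C, -2.953 in FEZF2 and -2.14 in ID3. Of these 12 calls, 7 ended in at least 1 of 8 fits with a library left out, and those of DMBX1, OTX2, SFRP4, SNORD15A and SOX1 held in all 8. PAX2 lost its call without KO 26, WT 1 or WT 2 of CT1.0 or WT 2 of CT0.4, where the difference was 2.456 to 3.559 over the 8 fits.

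Against IWP2 on day 4, the effect differed by 4.055 in CNTN2, 3.95 in SP5, 3.807 in OTX1, 3.709 in OTX2, 3.514 in PAX2, 3.472 in DMBX1 and 3.047 in EN1. It differed by -4.956 in SOX1, -4.003 in SFRP4, -3.793 in FEZF2, -2.945 in VGLL3 and -2.585 in HTR2C. Among short RNA genes it differed by 6.045 in MIR548AR, 4.89 in MIR548AZ, -4.085 in SNORD121A and -6.094 in RN7SK. Of the 16 calls, those of MIR548AR, MIR548AZ, RN7SK, SNORD121A and VGLL3 ended in at least 1 of 8 fits with a library left out, and MIR548AZ also lost its call after scaling (adjusted p = 0.0503).

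Against day 8 under CT1.0, the effect differed by 4.509 in CNTN2, 4.099 in DBX1, 3.96 in LHX5 and 3.628 in NTN1. It differed by -3.087 in MSX2, -2.684 in CYP26A1, -2.673 in HIST1H1D and -2.436 in COLEC12. DBX1, a progenitor factor of ventral interneurons, had 28.6 and 18.4 TPM in KO and 11 and 8.07 TPM in WT on day 4, and 0.088 and 2.45 TPM in KO and 12.4 and 14.7 TPM in WT on day 8. Among short RNA genes it differed by 4.76 in MIR548AT, 4.146 in MIR4256, 4.106 in MIR6165, -4.344 in MIR644A, -4.387 in SNORD15A and -5.408 in RN7SK. The near-identical copies SMIM11B and SMIM11A differed by 4.143 and -3.326, and the split of reads between them is uncertain. Of the 16 calls, those of CYP26A1, HIST1H1D, MIR6165, MIR644A, RN7SK and SMIM11A ended in at least 1 of 8 fits with a library left out.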

How the results depend on the processing

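The 4084 calls between KO and WT were 243 with only the 4 libraries compared in the fit and 1376 with a difference of at least 1 asked for. With 1 library left out they were 1603 (without KO 26) to 3099 (without KO 48). Calls on the difference from the effect under CT0.4 were 75, against 40 with no variance trend and 153 with protein-coding genes only, an alternative added after seeing the data, and 15 to 259 with 1 library left out. Those on the difference from IWP2 were 1379, against 283 with only the libraries compared, 778 with a difference of at least 1, and 503 to 1213 with 1 library left out. Those on the difference from day 8 were 2010, against 1038 after median-ratio scaling, 167 with only the libraries compared, 804 with a difference of at least 1, and 593 to 2412 with 1 library left out. Fewer libraries in a fit leave fewer degrees of freedom and also change the spread used. The part of each was not tested, and neither was the cause for the other settings. With the library number as a replicate block the counts were 4084, 75, 1388 and 2018, and no call on a named gene changed. Same-numbered libraries deviated together (correlation over 0.1) in 8 of 21 KO pairs, up to 0.204, and in 0 of 21 WT pairs, and since not every pair passed, the numbers were not taken to pair the samples. Of 109 named genes called between KO and WT, 54 lost the call in at least 1 of 4 fits with a library left out, 48 of them without KO 26, and 102 lost it with only the 4 libraries compared. SOX1 had the lowest adjusted p of the markers in that last fit (0.0879) and HOXA2 the highest (0.367).

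Median-ratio scaling reversed 13 values, none of which was called: VIM (-0.0575), ZIC2 (-0.13), VAX2 (-0.0602), FZD7 (-0.0682), CCND1 (-0.22), JAG1 (-0.18), NOTCH3 (-0.17), EFNA5 (-0.26), LIN28A (-0.0137), DPPA4 (-0.12), HSPA5 (-0.21), POU5F1 (-0.20) and the day 8 difference of OTX2 (-0.0685). Leaving out 1 library reversed uncalled values of genes between KO and WT, with ranges of -0.0587 to 0.57 for HESX1, -0.12 to 0.35 for VAX2, -0.0328 to 0.12 for CCND1, -0.0783 to 0.0537 for WLS, -0.00503 to 0.17 for JAG1, -0.11 to 0.11 for EFNA5, -1.37 to 0.18 for SNAI2, -0.0193 to 0.13 for HSPA5, -0.23 to 0.81 for SLC2A3, -0.28 to 0.23 for COLEC12, -0.56 to 0.30 for PAX6 and -0.0204 to 0.16 for POU5F1. The day 8 differences that reversed ranged from -0.99 to 0.26 for SOX1, -0.39 to 0.96 for OTX2, -0.00694 to 1.11 for EN1 and -2.41 to 0.28 for HOXA2. TPM keep no depth, so the precision of low values is unknown, and each group rests on 2 libraries.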
